A study of Mus musculus with 12 samples.

Results

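CD24 low mammary cells from mice with a conditional Wnt4 deletion were compared with CD24 low cells from control mice over 19938 genes. The comparison rested on 6 of the 12 Affymetrix arrays of the series, 3 per genotype, and took every probeset of the deposited table that carries 1 gene symbol, with 1 probeset per gene. Females of 10 to 14 weeks carried MMTV::Cre+.Wnt4fl/fl.mT/mG (hereafter deleted) or MMTV::Cre+.Wnt4wt/wt.mT/mG (WT). By these labels the controls shared the Cre transgene and the reporter and differed in the Wnt4 alleles. The MMTV promoter drives the Cre in mammary epithelium, and the mT/mG reporter turns recombined cells green. After depletion of other lineages, green cells were sorted into a CD24 low fraction, labelled myoepithelial, and a CD24 high fraction, labelled luminal. The design text names mammary glands and the treatment notes name mammary grafts, so which was digested is not settled. Per the study's methods the Cre and Wnt4fl/fl mice were kept on C57BL/6JOlaHsd. The mT/mG mice were bought from Jackson Laboratories, and the methods do not list them among the lines kept on that background. The labels give no number of animals per array. Arrays are called by the number in their title, with 1, 9 and 13 for WT and 3, 11 and 15 for deleted CD24 low cells. The title numbers form 3 sets (1 to 4, 9 to 12 and 13 to 16), each with 1 array of every genotype and fraction.

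Wnt4 is a secreted ligand that hormone-sensing luminal cells make in response to progesterone. Myoepithelial cells form the outer, contractile layer of the mammary duct on the basement membrane, and they respond to Wnt ligands. In canonical signalling a ligand binds a Frizzled receptor with an Lrp co-receptor and stabilises β-catenin, which acts with TCF/LEF factors on target genes. Several of these targets, such as Axin2, Nkd1, Rnf43 and Znrf3, in turn restrain the pathway. All levels below are log2 values after RMA, which summarises the probes of a probeset, and all changes are deleted minus WT on that scale, from limma with the standard error (SE) of the difference; unadjusted p-values are limma's as well.

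The Wnt4 probeset was read in every array as the check of the targeted gene. In CD24 low cells Wnt4 was at 6.49, 6.45 and 6.63 in WT arrays 1, 9 and 13 and at 6.20, 6.66 and 6.28 in deleted arrays 3, 11 and 15. The groups overlapped, and the difference was -0.14 (SE 0.19, unadjusted p = 0.469). In CD24 high cells, the fraction that holds the hormone-sensing cells, WT arrays 2, 10 and 14 gave 7.42, 7.92 and 7.62 and deleted arrays 4, 12 and 16 gave 6.11, 6.46 and 6.78. Those groups did not overlap, with a difference of -1.20 (SE 0.19, unadjusted p = 6.2e-05, limma adjusted p = 0.416). The mean of the WT CD24 low arrays (6.53) lay near that of the deleted CD24 high arrays (6.45), so the CD24 low level does not check the deletion in those cells. The position of the probes relative to the deleted exons is not given in the sources used here.

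Compared with the CD24 high fraction, the label held against myoepithelial and luminal markers. The mean of 21 myoepithelial markers was 10.68 to 11.12 in CD24 low arrays and 6.42 to 7.14 in CD24 high arrays. The mean of 17 general luminal markers was 8.48 to 9.20 in CD24 low arrays and 10.77 to 11.11 in CD24 high arrays. In each CD24 low array 16 or 17 of these 17 luminal markers still lay above the array's median. Markers of non-epithelial cells were higher in CD24 low arrays as well. Endothelial means were 6.49 to 9.03 against 5.22 to 6.43 in CD24 high arrays, and fibroblast means 6.57 to 8.74 against 5.65 to 5.99. As these are bulk samples, fewer cells of a type and less RNA per cell cannot be told apart.

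Wif1, Lgr6, Fzd8, Axin2 and Fzd2, all genes of the Wnt pathway, stood lower in the deleted CD24 low cells in each set of arrays, but with 3 arrays against 3 none of them passed the test across all genes. A single gene rose, nonagouti (symbol a). At an adjusted p of at most 0.05, 1 of 19938 genes was higher (0.00502%) and 0 were lower (0%), and every other gene had a limma adjusted p of 1. The unadjusted p was under 0.05 for 610 genes, of which 224 were higher (1.12%) and 386 lower (1.94%), and 116 of the 610 differed at least 1.5-fold. Together these shares lie below the fraction of 0.05 that tests without any true difference would give on average. In this fit, which leaves out the sets, the count of 610 alone therefore shows no excess of changed genes. That reading depends on the fit. The count was 906 with the set as a block within each fraction. With the block on the CD24 low arrays alone it was 1224, which lies above a fraction of 0.05. In the fit without the sets the count also moved with single arrays. It was 1834 without array 3 and 1138 without array 11, both above that fraction, and 345 without array 15. Genes lower in the deleted cells made up 63.3% of the 610, against 51.7% with the set as a block, 55.7% on the CD24 low arrays alone and 53.9% after median centring. The median change over all genes was -0.02. Of the 100 genes named with values, 53 moved by over 1.5 times or turned in sign when some single array was left out. With the set as a block, 19 of the 100 came under an unadjusted p of 0.05 and 2 went over it, and nonagouti alone passed.

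Wif1 encodes a secreted protein that binds Wnt ligands and keeps them from their receptors. It was at 8.64, 7.38 and 7.35 in WT arrays and at 6.90, 6.22 and 6.26 in deleted arrays. Each deleted array lay below its WT partner, the groups did not overlap, and array 1 was the highest of the 6. The difference was -1.33 (SE 0.33, unadjusted p = 0.00191), or 2.52-fold.

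Axin2 encodes a scaffold of the complex that destroys β-catenin and is a widely used readout of the canonical pathway. It was at 7.12, 7.46 and 7.96 in WT arrays and at 6.73, 6.85 and 6.37 in deleted arrays. All deleted arrays were below all WT arrays, and the gap was widest in set 13 to 16 (-1.60, against -0.40 and -0.62). The difference was -0.87 (SE 0.21, unadjusted p = 0.00171), or 1.83-fold. It was -0.51 without the CD24 low arrays of set 13 to 16.

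Lgr6 and Lgr5 encode receptors for R-spondins, which strengthen Wnt signals, and both mark stem or progenitor cells in several epithelia. Lgr6 was at 9.88, 9.38 and 9.61 in WT arrays and at 8.81, 8.35 and 7.94 in deleted arrays, a difference of -1.26 (SE 0.35, unadjusted p = 0.00384) with no overlap. Lgr5 was at 10.15, 10.49 and 10.57 in WT arrays and at 9.68, 9.82 and 10.40 in deleted arrays. It was lower in each set (-0.47, -0.68 and -0.18), but array 15 lay within the WT range, and the difference was -0.44 (SE 0.23, unadjusted p = 0.0768).

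Among receptors for the ligand itself, Fzd8 was at 7.33, 7.44 and 7.33 in WT arrays and at 6.81, 6.76 and 5.72 in deleted arrays. Fzd2 was at 7.69, 7.74 and 8.17 in WT arrays and at 7.30, 7.34 and 7.12 in deleted arrays. Both Frizzled genes were lower in all 3 sets without overlap, with differences of -0.94 (SE 0.24, unadjusted p = 0.00234) for Fzd8 and -0.61 (SE 0.19, unadjusted p = 0.00787) for Fzd2. Array 15 was the lowest for both, and without it the Fzd8 difference was -0.58 and the Fzd2 difference -0.55. Of 17 Wnt receptors and co-receptors 14 were lower and 3 higher, with a median of -0.20. The list's median was 0.09 in set 1 to 4, -0.30 in set 9 to 12 and -0.43 in set 13 to 16, and over the 3 sets it was -0.05 without array 15 and -0.40 without array 3.

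**Figure D1:**
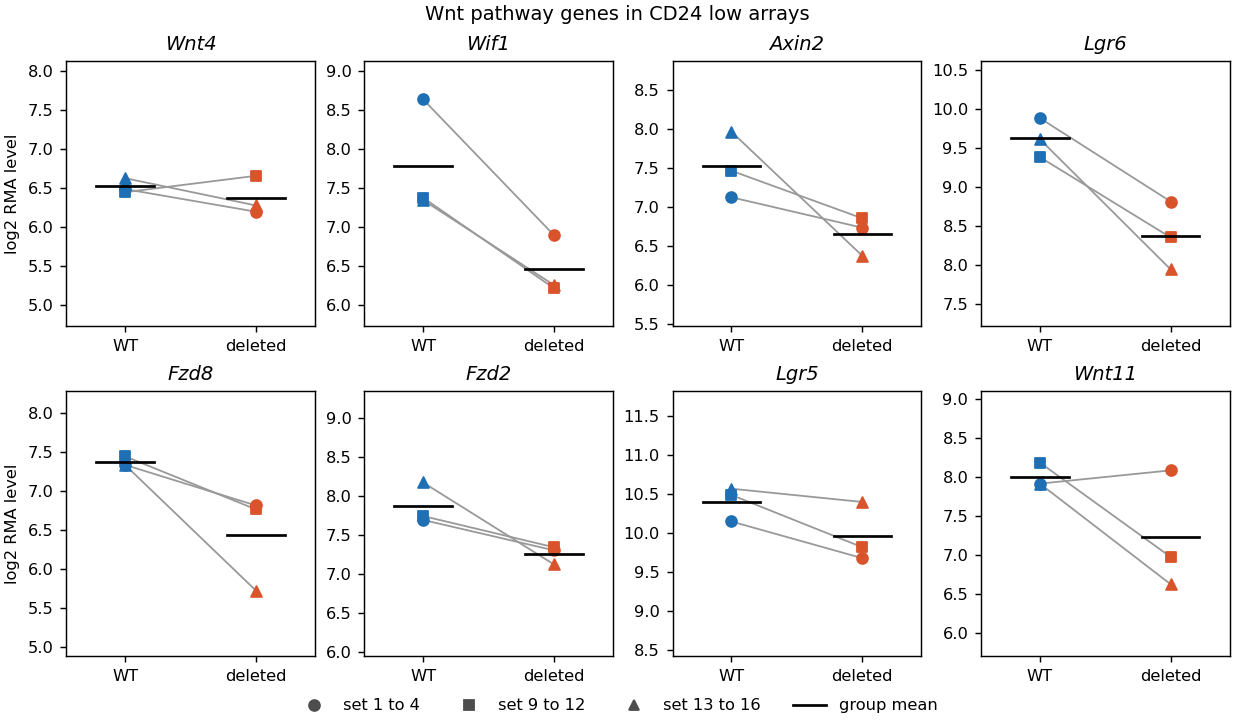
Log2 RMA level (y axis) of 8 Wnt pathway genes in the 3 WT (blue) and 3 deleted (orange) CD24 low arrays. Grey lines join the arrays of a set, symbols mark the set, black bars are group means, and each panel has the same height in log2 units; the lines of Wif1, Axin2, Lgr6, Fzd8, Fzd2 and Lgr5 all slope down, while Wnt4 slopes up in set 9 to 12 and Wnt11 in set 1 to 4.

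Of 25 Wnt target genes 22 were lower in the deleted cells and 3 were higher, among them Prox1 (0.23) and Procr (0.24), with a median of -0.21. Over all 19938 genes 54.6% were lower and the median was -0.02. The within-set medians of the list were -0.09, -0.14 and -0.31 for sets 1 to 4, 9 to 12 and 13 to 16. Its mean level was 7.41, 7.31 and 7.45 in WT arrays and 7.22, 7.08 and 7.01 in deleted arrays, which do not overlap. The median was -0.13 without array 15 and -0.09 without the CD24 low arrays of set 13 to 16. In all 3 sets 10 of the 25 were lower, against 13.8% of all genes, and 1 was higher, against 11.5%. The list holds genes that the study discussed on these arrays (Wif1, Lgr5, Sox9, Myc and Adamts18), so its direction is not independent evidence.

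The list also holds feedback regulators of the pathway. Nkd1, which restrains Dishevelled, was at 8.32, 7.81 and 8.79 in WT arrays and at 8.28, 7.67 and 7.36 in deleted arrays, a difference of -0.54 (unadjusted p = 0.117) that came to -0.09 without the CD24 low arrays of set 13 to 16. Rnf43, a ubiquitin ligase that removes Frizzled receptors, was at 7.40, 7.77 and 7.52 in WT arrays and at 7.55, 7.03 and 6.88 in deleted arrays, lower in the later 2 sets only (-0.41, unadjusted p = 0.046). Nkd2 at -0.50 and Znrf3 at -0.28 had unadjusted p of 0.0996 and 0.295, and came to -0.18 without array 15 and to -0.05 without array 1. Rnf43 was at -0.27 without array 15. These 4 regulators were picked from the list after their values were seen.

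Of 23 Wnt ligands and R-spondins 19 were lower and 4 higher, with a median of -0.13. Wnt11 was at 7.91, 8.18 and 7.91 in WT arrays and at 8.08, 6.97 and 6.62 in deleted arrays, a difference of -0.77 (SE 0.35, unadjusted p = 0.0512). Set 1 to 4 went the other way for this gene, which was at -0.47 without array 15 and -1.20 without array 3. Wnt10a, a ligand of basal epithelium picked after its value was seen, had a difference of -0.56 (unadjusted p = 0.139, or 0.00308 with the set as a block) that ran from -0.20 without array 1 to -0.97 without array 3. Wnt9a had one of -0.29 (unadjusted p = 0.0501), or -0.18 without array 13. Of 14 secreted Wnt inhibitors 9 were lower and 5 higher, with a median of -0.15 (-0.09 without array 9) and single changes from -1.33 (Wif1) to 0.30 (Sfrp2). Dkk3 was at -0.29.

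Joined, the 4 Wnt lists held 75 genes, of which 59 were lower, 14 higher and the rest at 0.00 after rounding, with a median of -0.14. Lower values in all 3 sets were seen for 21 of the 75 (28.0%), against 13.8% of all genes tested, and higher values in all 3 sets for 1, against 11.5%. The groups were apart with the deleted arrays lower for 7 of the 75 (9.3%), against 4.12% of all genes, and with the deleted arrays higher for 0, against 2.65%. An unadjusted p under 0.05 was reached by 6 lower genes (8.0%, against 1.94% of all genes) and 0 higher genes. The genes share a pathway, a set of arrays and in part their lists, so they are not separate observations. The joined lists also hold Wif1, Lgr5, Sox9, Myc and Adamts18, which the study discussed on these arrays. As the lists were chosen with earlier results of these data known, these shares are a description and not independent evidence.

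Promoters of members of these lists were searched for the TCF/LEF site CTTTGAT and the E-box CACGTG that Myc binds, on both strands, in RefSeq windows of 250 bases before and 50 after each annotated start. Of the genes tested 15614 had such a window (GRCm38.p6). CTTTGAT was present in 2 of 15 Wnt targets, 2 of 17 Wnt ligands and 0 of 11 receptors with a window, against 3.7% of all genes tested with one. CACGTG was present in 4 of 15 Wnt targets, against 9.5% of all. Among all genes tested the median change was -0.01 with CTTTGAT and -0.02 without it, and -0.04 with CACGTG and -0.02 without it. The 250 bases before the start are given for Axin2, Wif1 and Wnt11, the members described above with a window that bear on the pathway's readout, inhibitor and ligand classes, 5′ to 3′ on the gene's strand with either motif in capitals. In Wif1 the E-box begins 210 bases before the start, in Wnt11 the TCF/LEF letters lie on the opposite strand 51 bases before it, and the Axin2 window holds neither. RefSeq gives Wnt11 2 starts, and the window of the other start, not shown, holds neither motif.
Axin2 (chr11:108920099-108920348, GRCm38.p6, plus strand): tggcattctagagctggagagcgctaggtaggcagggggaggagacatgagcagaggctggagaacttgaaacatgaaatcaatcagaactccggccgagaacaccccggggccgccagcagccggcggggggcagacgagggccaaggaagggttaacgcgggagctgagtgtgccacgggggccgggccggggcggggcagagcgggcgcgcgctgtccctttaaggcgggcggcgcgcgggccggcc
Wif1 (chr10:121033754-121034003, GRCm38.p6, plus strand): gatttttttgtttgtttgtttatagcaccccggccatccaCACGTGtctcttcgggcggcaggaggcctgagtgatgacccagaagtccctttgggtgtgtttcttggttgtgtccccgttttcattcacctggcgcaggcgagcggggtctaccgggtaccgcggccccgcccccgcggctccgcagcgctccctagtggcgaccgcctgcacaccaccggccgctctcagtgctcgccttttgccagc
Wnt11 (chr7:98834862-98835111, GRCm38.p6, plus strand): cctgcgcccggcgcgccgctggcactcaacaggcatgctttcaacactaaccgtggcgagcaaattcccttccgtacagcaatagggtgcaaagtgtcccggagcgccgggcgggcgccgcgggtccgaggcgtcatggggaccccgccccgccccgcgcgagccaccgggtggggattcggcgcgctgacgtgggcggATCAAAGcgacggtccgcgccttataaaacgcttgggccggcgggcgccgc

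Myc, itself a target of the canonical pathway, was at 12.03, 12.13 and 12.15 in WT arrays and at 11.97, 12.03 and 12.10 in deleted arrays. The ranges overlapped, and the difference was -0.07 (SE 0.13, unadjusted p = 0.625). Genes that Myc is known to drive were nevertheless mostly lower. Of 39 genes of the nucleolus and of ribosome assembly 36 were lower and 3 higher, with a median of -0.27, and of 30 genes of metabolism and translation 27 were lower and 3 higher, with a median of -0.26.

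The Myc target lists differed between sets. Their medians were 0.10 and 0.06 in set 1 to 4, -0.66 and -0.46 in set 9 to 12 and -0.27 and -0.17 in set 13 to 16, so the genotype difference had the opposite sign in 1 of the 3 sets. Without array 11 the medians were -0.08 and -0.05, without array 3 they were -0.50 and -0.42, and with the level of muscle, fibroblast and endothelial markers as a covariate they were -0.10 and -0.05. Lower in all 3 sets were 8 of 39 and 11 of 30, against 13.8% of all genes.

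Nop2, a methyltransferase of ribosomal RNA, was at 8.19, 8.14 and 7.82 in WT arrays and at 7.97, 7.58 and 7.11 in deleted arrays, lower in each set with an overlap (-0.49, SE 0.21, unadjusted p = 0.0385). Tbrg4 was lower without overlap, at 9.34, 9.34 and 9.17 against 9.15, 8.90 and 8.89 (-0.30, unadjusted p = 0.0271). Ipo4, an importin that carries ribosomal proteins and histones, differed by -0.51 (unadjusted p = 0.0361) and Polr1a, the large subunit of RNA polymerase I, by -0.47 (unadjusted p = 0.059). Against the list, Npm1, the abundant nucleolar protein nucleophosmin, was higher in every set (10.12, 10.46 and 10.38 against 10.60, 10.53 and 10.47) with a difference of 0.21 (unadjusted p = 0.259), and Ddx18 differed by 0.21 as well.

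CACGTG was in 13 of 33 nucleolar targets with a window (39.4%) and in 9 of 28 metabolic targets (32.1%), against 9.5% of all genes tested with a window. In the nucleolar list the median change was -0.32 with the E-box and -0.26 without it, and in the metabolic list it was -0.25 with and without it. The Nop2 window is shown as the list's named member with an E-box, in capitals, which begins 60 bases before the start.
Nop2 (chr6:125131633-125131882, GRCm38.p6, plus strand): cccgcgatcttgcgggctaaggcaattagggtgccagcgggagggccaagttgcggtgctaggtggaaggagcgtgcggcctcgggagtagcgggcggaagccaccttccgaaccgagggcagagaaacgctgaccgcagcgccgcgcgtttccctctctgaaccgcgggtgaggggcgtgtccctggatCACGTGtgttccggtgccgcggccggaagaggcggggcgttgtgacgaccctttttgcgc

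Nonagouti (a) encodes a secreted antagonist of melanocortin receptors that switches hair pigment. It was at 5.37, 5.0 and 5.05 in WT arrays 1, 9 and 13 and at 8.33, 8.18 and 7.30 in deleted arrays 3, 11 and 15. Each deleted array was above all WT arrays, by 2.26 to 3.18 within a set. The change was 2.80 (SE 0.23), or 6.95-fold, with a limma adjusted p of 0.00206. In CD24 high cells nonagouti was at 5.25, 5.01 and 5.27 in WT arrays and 8.13, 8.0 and 8.24 in deleted arrays, a change of 2.95 (SE 0.23, limma adjusted p = 0.0012). The difference between the fractions was -0.15 (SE 0.33, unadjusted p = 0.657).

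**Figure D2:**
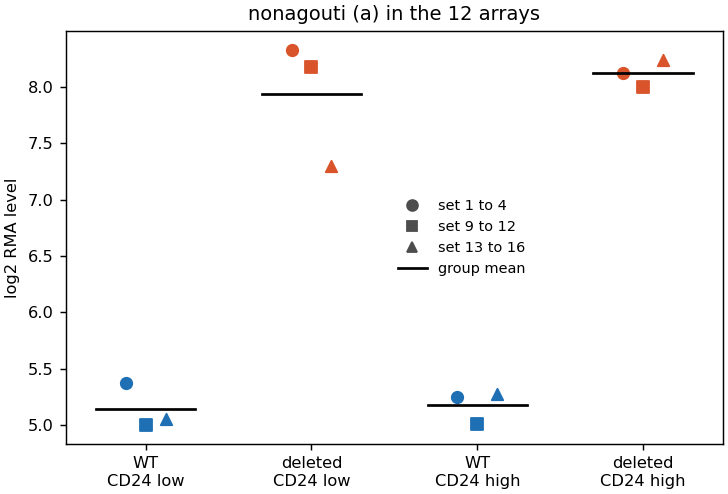
Log2 RMA level (y axis) of nonagouti in all 12 arrays by genotype and fraction (x axis), with symbols for the set and black bars for group means. The 6 WT arrays lie between 5.0 and 5.37 and the 6 deleted arrays between 7.30 and 8.33.

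Genes next to nonagouti and next to Wnt4 were read for comparison, 10 tested genes on each side in RefSeq order. Around nonagouti 6 neighbours were higher and 13 lower, between -0.38 and 0.23, with 0 of 20 under an unadjusted p of 0.05 (against 1.12% of all genes higher and 1.94% lower) and 3 of 20 lower without overlap (against 4.12%). Around Wnt4 8 were higher and 11 lower, between -0.55 and 0.21, with 0 of 20 under that p and 1 of 20 higher without overlap (against 2.65%). The change of nonagouti lay outside the range of its neighbours, and the 9 melanocyte markers had a median of -0.06.

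Below nonagouti, the genes with the smallest unadjusted p among those with groups apart and 1 direction in all 3 sets differed by less than nonagouti. Lower in the deleted cells were Klf16, a zinc finger factor, at 9.27, 9.33 and 9.56 against 8.65, 8.94 and 8.75 (-0.61, SE 0.12, unadjusted p = 3.66e-04) and Fbxo42, a ubiquitin ligase adaptor, at 7.54, 7.51 and 7.45 against 7.14, 6.79 and 6.71 (-0.62, SE 0.13, unadjusted p = 6.99e-04). Rem2, a small GTPase that binds calcium channels, was at 6.70, 6.74 and 7.04 against 5.95, 6.08 and 5.38 (-1.02, SE 0.24, unadjusted p = 0.00126). With Axin2 and Wif1, the same rule gave Ubqln4 (-0.82), Chdh (-0.61), Tspan18 (-0.98), Foxred2 (-0.68), Nptx1 (-0.83), Gas1 (-0.45) and Kif1a (-0.71). Of these, Chdh oxidises choline in mitochondria, Gas1 is a co-receptor for hedgehog ligands and Kif1a is a motor of axonal vesicle transport.

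Higher in the deleted cells by the same rule were Zfp62 (0.72), Rbmx (0.65), Hmcn1 (0.64), Spata6 (0.62), C2cd2 (0.40), Casp8 (0.51), Cep112 (0.59), Phf14 (0.60), Lrrcc1 (0.85), Rnf168 (0.39) and Cmah (0.52). Zfp62 was at 6.27, 6.13 and 6.15 against 6.83, 6.72 and 7.18 (SE 0.18, unadjusted p = 0.00186). Hmcn1, which encodes the matrix protein hemicentin, was at 8.47, 8.78 and 8.44 against 9.39, 9.35 and 8.88 (SE 0.16, unadjusted p = 0.00208). Casp8, the initiator caspase of death receptors, was at 7.59, 7.74 and 7.62 against 8.11, 8.44 and 7.95 (SE 0.13, unadjusted p = 0.00263). Rbmx binds RNA in splicing, Rnf168 marks chromatin at DNA breaks, and Cep112 and Lrrcc1 are centrosomal proteins. None of these groups of 3 overlapped, which the rule required. The rule also asked that the higher of the group means reach 6.08, and nonagouti, Cep112, Rem2 and Nptx1 met that only through the group in which they were higher. It chose genes by their p, so these p-values are a description. They come from the fit over all genes, which had no filter on level.

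Genes of stem and progenitor cells split. Of 23, 13 were lower and 10 higher, with a median of -0.02. Bcl11b, a zinc finger factor of basal cells, was at 7.14, 6.77 and 7.17 in WT arrays and at 6.66, 6.54 and 6.10 in deleted arrays (-0.60, SE 0.16, unadjusted p = 0.00364), lower in each set with no overlap. Sox9 was at 10.59, 10.49 and 10.49 in WT arrays and at 10.61, 10.03 and 10.18 in deleted arrays, where array 3 lay with the WT arrays (-0.24, SE 0.16, unadjusted p = 0.164). Sox10 and Tbx3, factors of the basal lineage and of mammary bud formation, were at -0.39 and -0.27. Bmi1, a Polycomb protein, was higher in each set, by 0.39 (unadjusted p = 0.09). Of 21 myoepithelial markers 12 were lower and 9 higher, with a median of -0.04. Krt5 was at 11.72, 11.73 and 11.71 in WT arrays and at 11.93, 11.22 and 11.33 in deleted arrays (-0.23, unadjusted p = 0.295), Oxtr, the oxytocin receptor, differed by -0.52 and Snai2 by 0.24.

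Of 21 FGF genes 17 were lower and 4 higher, with a median of -0.14 that was -0.03 without array 15, and 1 was lower without overlap, against 4.12% of all genes. Fgf2 was at 7.91, 7.66 and 7.71 in WT arrays and at 7.41, 6.85 and 6.85 in deleted arrays (-0.73, SE 0.22, unadjusted p = 0.00659). Fgfr3 was lower in each set with an overlap (-0.54, unadjusted p = 0.0527; -0.34 without array 15), and Fgfr2 was at 9.41, 9.59 and 9.43 against 9.60, 9.37 and 9.0 (-0.15, unadjusted p = 0.516), higher in set 1 to 4 and lower in the other sets. Of 22 Notch genes 13 were lower and 9 higher, with a median of -0.03. Lfng, a glycosyltransferase that tunes Notch receptors, differed by -0.61 (unadjusted p = 0.0102) and the coactivator Maml1 by -0.39 (unadjusted p = 0.00419). They were the 2 of the 22 that were lower without overlap, against 4.12% of all genes.

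TGF-β, BMP and YAP genes had medians near that of all genes. They were -0.08 for 23 TGF-β targets, 0.02 for 24 BMP genes and -0.06 for 22 YAP and TAZ targets. Smad7, the inhibitory Smad, differed by -0.44 (unadjusted p = 0.0342), Ltbp3, which stores latent TGF-β in the matrix, by -0.32 and Id4 by -0.58, while Id1 differed by 0.50 and was higher in each set, but ran from 0.10 without array 1 to 0.98 without array 3 and was 0.21 with the non-epithelial marker level as a covariate. Ankrd1, a mechanosensitive YAP target, was at 6.53, 6.59 and 6.71 in WT arrays and at 7.41, 7.63 and 9.26 in deleted arrays, a difference of 1.49 (SE 0.47, unadjusted p = 0.00861) that was 0.90 without array 15. Ccn2, another YAP target, was at 12.44, 12.10 and 11.80 against 12.84, 12.11 and 12.09 (0.23, unadjusted p = 0.684), and it was -0.02 without array 3.

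Adamts18, the protease after which the series is titled, was at 8.25, 8.46 and 8.05 in WT arrays and at 8.77, 7.91 and 7.35 in deleted arrays. It was higher in set 1 to 4 (0.51) and lower in the other sets (-0.55 and -0.70), and the difference was -0.24 (SE 0.30, unadjusted p = 0.437), or 0.08 without array 15. Of 23 ADAMTS genes 13 were lower and 10 higher, with a median of -0.03. Adamtsl3, an ADAMTS-like matrix protein, was at 4.80, 4.69 and 4.69 against 4.12, 4.27 and 4.15 (-0.54, SE 0.15, unadjusted p = 0.00338) without overlap. Its level was low, at percentile 23.9 of all genes in CD24 low cells, where signal could not be told from background. The aggrecanase Adamts5 differed by 0.55 (unadjusted p = 0.065), or 0.32 without array 13.

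Of 32 genes of the basement membrane and hemidesmosome 23 were lower and 9 higher, with a median of -0.14, which came from set 13 to 16 (medians 0.20, 0.00 and -0.52) and was 0.12 without array 15. Lama1, the laminin α1 chain, was lower in each set (-0.57, unadjusted p = 0.131), as was the hemidesmosomal integrin Itgb4 (-0.45, unadjusted p = 0.0515), and without array 15 they were at -0.20 and -0.18. Col18a1 was at 8.02, 7.90 and 7.67 against 8.38, 7.78 and 6.86 (-0.19, unadjusted p = 0.54), and was 0.21 without array 15. Of 30 interstitial matrix genes 15 were lower and 15 higher.

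Fn1, the gene of fibronectin, was at 6.98, 9.10 and 8.36 in WT arrays and at 8.28, 10.24 and 8.85 in deleted arrays, higher in each set by 1.30, 1.14 and 0.49 although the sets differed by more than the genotypes (0.98, SE 0.53, unadjusted p = 0.0922). With the set as a block the SE was 0.20 and the unadjusted p = 0.00116 (limma adjusted p = 0.898), and the difference was 0.39 without array 1. The fibroblast marker mean was 6.57, 8.74 and 6.68 in the same WT arrays and 6.65, 8.41 and 7.16 in the deleted arrays, and with the non-epithelial marker level as a covariate the Fn1 difference was 0.45. Tnc, the matrix protein tenascin C, was at 8.16, 7.86 and 8.22 against 9.43, 8.55 and 8.24 (0.66, unadjusted p = 0.141), or 0.32 without array 3. The collagen-binding integrin Itga1 was at 7.73, 8.04 and 7.85 against 8.21, 8.62 and 8.40 (0.54, SE 0.22, unadjusted p = 0.0331) and Itga8 at 8.08, 8.07 and 7.66 against 8.68, 8.43 and 8.20 (0.50, unadjusted p = 0.101). Of 19 integrins 10 were higher and 9 lower, and of 34 junction genes 17 were higher and 17 lower, with Pkp2, a desmosomal plaque protein, at 0.52 and Cldn7 at -0.52.

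Most mitosis genes stood higher in the deleted cells, though none passed the test and their median in set 13 to 16 was near 0. Of 29 genes of mitosis and replication 25 were higher and 4 lower, with a median of 0.51, and 14 were higher in all 3 sets (48.3%, against 11.5% of all genes). Within sets the medians were 0.64, 0.94 and 0.03, and the list's median ran from 0.01 without array 3 to 0.89 without array 1. The list mean was 6.78, 5.50 and 5.73 in WT arrays and 7.54, 6.25 and 5.73 in deleted arrays, so the groups overlapped. Cenpe, a kinetochore motor, was at 5.01, 4.0 and 4.24 against 6.76, 5.61 and 4.58 (1.23, SE 0.56, unadjusted p = 0.0519) and Cenpf differed by 1.11 (unadjusted p = 0.0889). Both were dim, with mean levels in CD24 low cells at percentiles 32.9 and 37.6 of all genes. Mki67 and Top2a, picked after their values were seen, differed by 1.32 and 1.22 (unadjusted p = 0.145 and 0.25, or 0.006 and 0.0478 with the set as a block). Without array 3 they were at 0.68 and 0.34, Cenpe at 0.68 and Cenpf at 0.53. The 4 lower members, among them Mcm7 at -0.34, all encode subunits of the Mcm helicase that licenses replication. In CD24 high cells the list's median was 0.54, with 26 genes higher and 3 lower. That median was 1.57, 0.54 and -0.34 within the sets, so its sign turned in set 13 to 16.

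**Figure D3:**
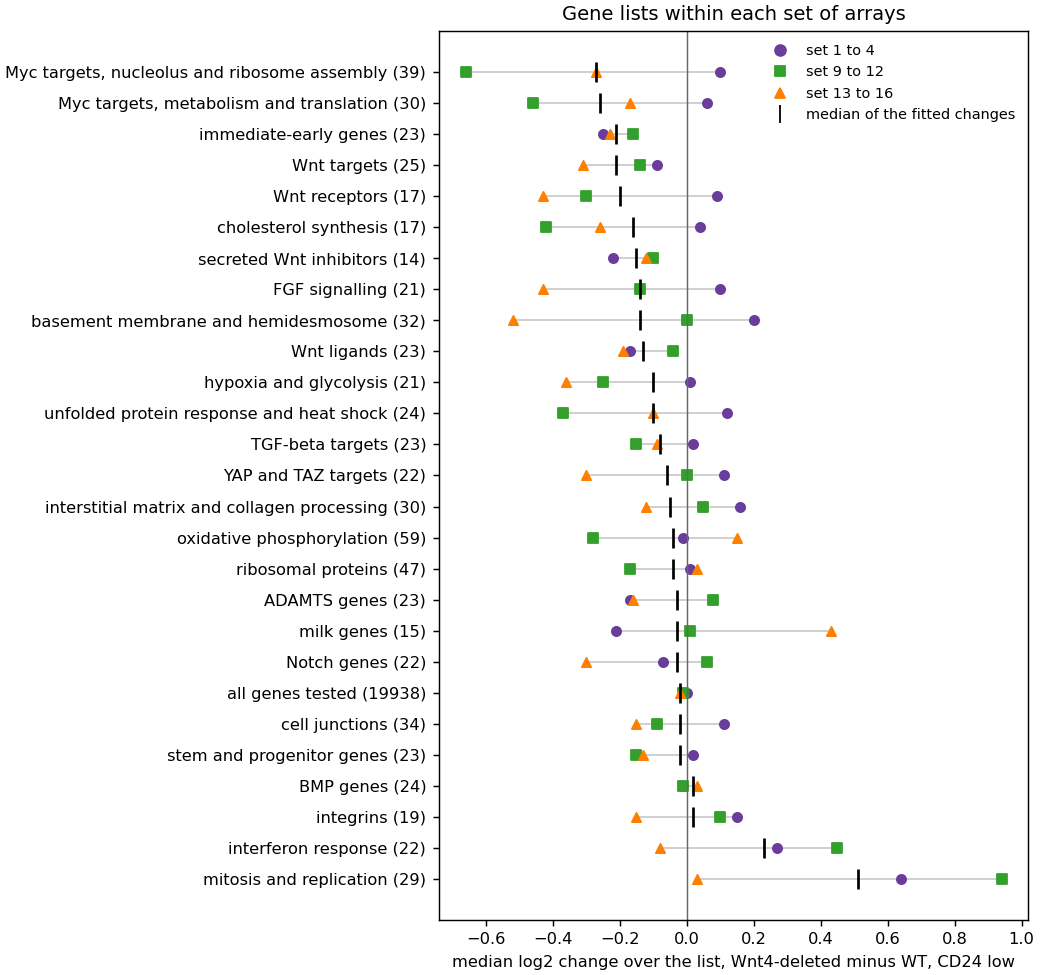
Median log2 change over each pathway or quality list (x axis, deleted minus WT in CD24 low cells; number of measured genes in brackets) in each of the 3 sets, with black ticks for the median of the fitted changes. The Wnt targets, ligands and inhibitors and the immediate-early genes have all 3 sets below 0, the Wnt receptors start at 0.09 in set 1 to 4, both Myc lists cross 0, and mitosis runs from 0.03 to 0.94.

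Immediate-early genes, which respond within minutes to stimuli and to dissociation of tissue, had medians below 0 in each set. Of 23, 18 were lower and 5 higher, with a median of -0.21 and within-set medians of -0.25, -0.16 and -0.23, and 11 were lower in all 3 sets (47.8%, against 13.8% of all genes). Egr3 was at 9.22, 9.66 and 9.34 against 8.59, 9.39 and 8.22 (-0.67, SE 0.26, unadjusted p = 0.0237) and Fosl2 differed by -0.50 (unadjusted p = 0.121), and without array 15 they were at -0.41 and -0.24. The list's median ran from -0.06 without array 3 to -0.34 without array 1. The CD24 high median was -0.18, with 22 genes lower and 1 higher.

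Of the other lists, 19 of 22 interferon response genes were higher (median 0.23), led by Ifit2 at 4.65, 5.39 and 5.32 against 5.45, 6.03 and 6.14 (0.76, SE 0.39, unadjusted p = 0.0815), and the antigen-presenting B2m differed by 0.25. The interferon list was at 0.04 without array 1, at 0.42 without array 13 and at 0.06 with the non-epithelial marker level as a covariate. Of 21 hypoxia and glycolysis genes 14 were lower (median -0.10, or -0.32 without array 3), among them Vegfa (-0.55, unadjusted p = 0.026) and Ddit4 (-0.42, unadjusted p = 0.0376), both without overlap. Of 17 cholesterol synthesis genes 14 were lower (median -0.16, or -0.02 without array 11), with the regulator Srebf2 at -0.59 (unadjusted p = 0.0458). Ribosomal protein and oxidative phosphorylation genes had medians of -0.04, with Rps2 at -0.37 and Atp5g1 at -0.65, both without overlap. The unfolded protein response and milk lists had medians of -0.10 and -0.03, and the 17 general luminal genes one of -0.16, with the epithelial factor Elf3 at -0.54 (unadjusted p = 0.026).

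Over the 6 CD24 low arrays a gene had on average 51.3% of its sum of squares between sets, 17.3% between genotypes and 31.4% in the rest. Their degrees of freedom alone would give 40%, 20% and 40%. The set share was above 50% for 52.4% of genes and the genotype share for 7.91%. Arrays of the same set and opposite genotype correlated across genes at 0.980 to 0.991, and arrays of the same genotype at 0.963 to 0.986. The within-set changes of all genes correlated at -0.02, 0.13 and 0.11 between sets, across genes that are not independent.

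Markers of other cells differed between the sets. Skeletal muscle markers averaged 6.66 in array 1 and 7.43 in array 3. They averaged 5.31 to 5.53 in the remaining 4 CD24 low arrays, against 5.13 to 5.40 in CD24 high arrays, and 17 of 18 were higher in deleted cells (median 0.35, or -0.19 without array 3). Endothelial markers averaged 6.60 and 6.49 in arrays 1 and 3, 7.96 and 9.03 in arrays 9 and 11 and 8.74 and 8.84 in arrays 13 and 15, and 15 of 16 were higher (median 0.41). That endothelial median was -0.09, 1.08 and 0.06 within the sets, and it ran from -0.23 without array 1 to 1.35 without array 3. Fibroblast markers averaged 8.74 and 8.41 in arrays 9 and 11 and 6.57 to 7.16 elsewhere, and 6 of 14 were higher. Among CD24 low arrays, muscle markers were highest in arrays 1 and 3, where endothelial markers were lowest. A mean of the 3 lists therefore cannot adjust for each cell type by itself. With that mean as a covariate, Wif1 was at -1.13, Axin2 at -0.91, Lgr6 at -1.19, Fzd8 at -0.97 and Fzd2 at -0.61. Rnf43 was at -0.41, Nkd2 at -0.35, Wnt10a at -0.24 and Znrf3 at -0.14. The medians of the Wnt lists were -0.14 for targets (against -0.21), -0.14 for receptors (against -0.20), -0.15 for ligands (against -0.13) and -0.14 for inhibitors (against -0.15). The same fit was run for the other named genes and all lists. It put the median at 0.90 for mitosis and replication, -0.36 for immediate-early genes and -0.02 for general luminal genes, and Mki67 at 1.82. Beyond such fits the part of these cells was not tested.

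**Figure D4:**
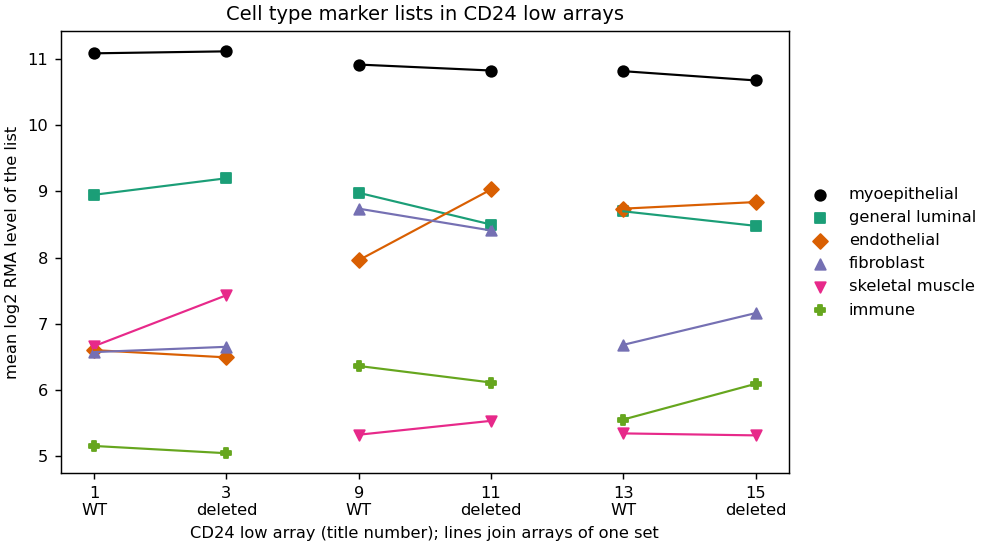
Mean log2 RMA level (y axis) of 6 marker lists in each CD24 low array (x axis, title number and genotype); lines join the WT and deleted array of a set. Myoepithelial markers stay between 10.68 and 11.12, muscle markers stand out in arrays 1 and 3, endothelial markers are lowest in those arrays, and fibroblast markers are highest in arrays 9 and 11.

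To ask where the CD24 low cells departed from the CD24 high cells, the difference of the 2 genotype effects was tested. At an adjusted p of at most 0.05, 0 genes passed (0%), and 273 lay under an unadjusted p of 0.05, with 153 higher and 120 lower in CD24 low. The 273 are also less than a fraction of 0.05 of the genes tested. Of the Wnt genes, Wif1 differed by -1.08 between the fractions (unadjusted p = 0.0411) and Fzd2 by -0.76 (unadjusted p = 0.0163), whereas Axin2 at -0.51, Lgr6 at -0.71, Fzd8 at -0.59 and Lgr5 at -0.04 had unadjusted p from 0.106 to 0.894. In CD24 high cells Axin2, Lgr6, Fzd8 and Lgr5 were lower in each set too, with differences of -0.36, -0.55, -0.34 and -0.40. Wif1 in CD24 high cells was at 5.48, 4.97 and 5.09 against 4.76, 5.24 and 4.77 (-0.26).

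Of the 12 genes the study discussed, Wnt4 and Krt5 had the smallest p for this difference. Krt5 differed by 0.89 in CD24 high cells and by -0.23 in CD24 low cells (difference -1.12, unadjusted p = 0.00307), and Wnt4 by -1.20 and -0.14 (difference 1.06, unadjusted p = 0.00253). Ptgs2, which makes prostaglandins, differed by 0.52 in CD24 low cells and by -1.46 in CD24 high cells (difference 1.98, unadjusted p = 0.00357). Ptprz1, a receptor phosphatase, was at 6.95, 7.16 and 7.03 against 7.21, 8.25 and 7.98 in CD24 low cells (0.77) and differed by -1.15 in CD24 high cells.

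**Figure D5:**
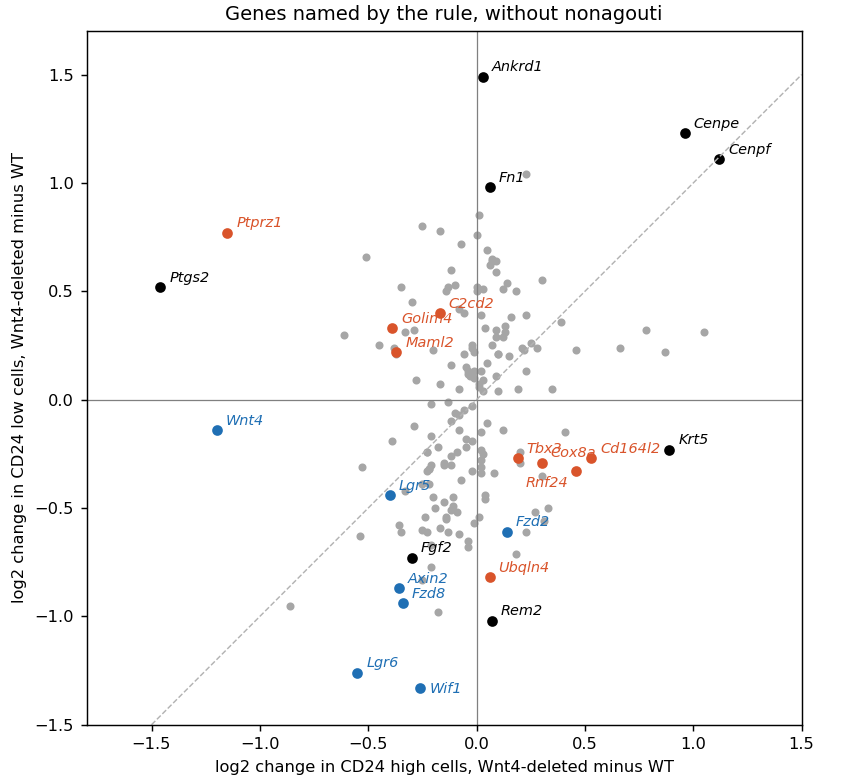
Log2 change in CD24 low cells (y axis) against that in CD24 high cells (x axis) for the genes chosen by the naming rule, without nonagouti; the dashed line marks equal change. Wif1, Lgr6, Fzd8, Axin2 and Fzd2 (blue, as are Lgr5 and Wnt4) lie below the dashed line, Wnt4 lies far to the left, and genes in orange lay in opposite directions in all sets of the 2 fractions, among them Ptprz1 at 0.77 and -1.15.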

How the data were processed

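The authors hybridised RNA of sorted cells, amplified with Ovation kits, to 1 Affymetrix array per sample and deposited log2 values made by RMA in Expression Console 1.1.2800 (values 1.62 to 13.8). Of 35556 probesets, the 21789 with 1 gene symbol were kept, and for the 999 genes with several probesets the one with the highest mean over the 12 arrays was used. limma 3.58.1 in R 4.3.3 (lmFit, eBayes) fitted 1 mean per genotype and fraction over all 12 arrays, with 8 residual degrees of freedom (11.05 after moderation), two-sided p and Benjamini-Hochberg adjustment over 19938 genes at 0.05. The fit was also tried on simulated data with independent noise in each array, so that trial does not cover arrays paired by set. A gene of median SE (0.17) needed a difference of 0.38 for an unadjusted p of 0.05; the number of arrays limits this precision.

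No array was identical to another. Nothing in the labels ties arrays to separate animals, so the p-values cover only the spread of these samples, which may be technical. Deviations from the group means correlated at 0.70, 0.52 and 0.37 between the CD24 low arrays of the same title-number set and at most 0.10 between unlike sets, so the sets pair these arrays. Unless marked, the p-values in the text come from the fit without this pairing, and the block by set is an alternative here. With the block, the unadjusted limma p was 1.83e-04 for Wif1, 4.16e-04 for Lgr6, 0.00165 for Fzd8 and 0.0364 for Lgr5. It rose to 0.00388 for Axin2 and 0.0182 for Fzd2. None of these genes passed adjustment with the block. The study's microarray test is not given in the sources used here.

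The comparison, the 40 gene lists (matched by symbol, some sharing genes) and the tests were chosen with earlier results of these data known. Named were the genes the study discussed, genes that passed, the 12 higher and 12 lower genes of smallest p with groups apart, 1 sign in all sets and a higher group mean at or above the median level (6.08), the 2 members of smallest p per list and direction, and the 5 genes each way for the difference of fractions. Predicted genes were not named, and 8 genes were named after their values were seen. Lists are described by counts and medians, with no test of a list. Promoters came from RefSeq. Alternatives covered filtering, probeset means, scaling, priors, weights, blocks, fewer arrays, a marker covariate and thresholds.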

Additional observations from a re-analysis of the deposited data

Results flagged for a closer look

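Of the genes given with values in the text, 7 were lower in every set of one fraction and higher in every set of the other. The difference of the genotype effects, CD24 low minus CD24 high on the log2 scale, was 1.91 for Ptprz1 (unadjusted p = 0.0089), 0.72 for Golim4, a Golgi membrane protein (unadjusted p = 0.00202), and 0.56 for C2cd2 (unadjusted p = 0.0026). It was -0.88 for Ubqln4, a ubiquilin (unadjusted p = 0.00713), -0.80 for Cd164l2 (unadjusted p = 0.00257), -0.79 for Rnf24 (unadjusted p = 0.00836) and -0.46 for Tbx3 (unadjusted p = 0.0332). All 7 had an adjusted p of 1. All but Tbx3 met the naming rule of smallest p for this difference, so these p-values are a description and not support. The change of Ubqln4 in CD24 high cells was only 0.06. Among all 19938 genes tested, 180 were higher in every CD24 low set and lower in every CD24 high set, 148 the reverse, 261 higher in every set of both and 453 lower in every set of both.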

How the results depend on the processing

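Nonagouti passed alone in the comparison as reported and in most alternatives, with changes between 2.60 and 3.11 over 20 settings. The number of genes passing was 0 on the CD24 low arrays alone and 0 without the CD24 low arrays of set 9 to 12, and ranged from 1 to 2 when single arrays were left out (without array 3, Dmd passed too, at 1.12, limma adjusted p = 0.033). The alternatives without set 9 to 12 and without set 13 to 16 were chosen after seeing the data. With the replicate block within fraction 1 gene passed and 906 lay under an unadjusted p of 0.05, against 610. With the block shared by both fractions 1 passed and 786 lay under it. With the block on the CD24 low arrays alone 1 passed and 1224 lay under it. The block changed no other call, and the difference of effects had 0 genes passing in every setting run. Blocks, the prior, the filter on level and the CD24 low arrays alone left the change of each gene as it was. These settings could not turn a sign, so they do not bear on the next count. Of 100 named genes 92 kept their sign in all settings. The other 8 were Sfrp2 and 7 genes with these ranges when single arrays were left out: Prox1 (-0.29 to 0.64), Procr (-0.18 to 0.92), Adamts18 (-0.62 to 0.08), Fgfr2 (-0.29 to 0.01), Col18a1 (-0.54 to 0.21), Ddx18 (-0.01 to 0.48) and Ccn2 (-0.02 to 0.39). The signs turned without array 15 for Prox1 (-0.29), Procr (-0.18), Adamts18, Fgfr2, Col18a1 and Ddx18, without array 1 for Prox1 (-0.11) and Procr (-0.16), without array 11 for Procr (-0.03) and without array 3 for Ccn2. Procr was also at -0.17 with the marker covariate, and without set 13 to 16 Col18a1 was at 0.12 and Sfrp2 at -0.01. The cause of these changes was not tested. The deposited values carry no detection calls, so dim probesets could not be told from background.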
